A study of Mus musculus with 4 samples.

Results

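The mesendoderm genes were a set of 10 genes, Eomes, T (Brachyury), Gsc, Evx1, Mixl1, Fgf8, Mesp1, Foxa2, Cer1 and Lhx1, chosen by name as genes that mark the primitive streak and its descendants, and read here in undifferentiated mouse embryonic stem cells (mESCs). They are 10 of the 55401 genes in the deposited count table. RNA-seq had been performed on WT and Haspin-KO cells of the E14 mESC line, with 2 libraries per group. E14 is an established mESC line. Both groups grew untreated in medium with fetal bovine serum, LIF and 2i, the inhibitor pair PD0325901, which blocks MEK, and CHIR99021, which blocks GSK3. The Haspin-KO lines were made by transfecting E14 cells with a pair of CRISPR guides against the coding sequence of Haspin, the kinase that phosphorylates histone H3 at threonine 3 in mitosis. Each line is a single clone picked for the absence of that phosphorylation, and the labels do not say which line a library came from or whether the libraries came from separate cultures. Differences between groups therefore cannot be told apart from differences between clones, and p-values measure only the spread between these libraries, which may be technical. The cells were passaged on mitomycin-treated mouse embryonic fibroblasts and moved to gelatin for assays.

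Mesendoderm is the population of the primitive streak that gives rise to both mesoderm and definitive endoderm. Nodal and Wnt signals, sustained by BMP from the neighbouring tissue, switch on the T-box factors Eomes and T and the homeobox factors Mixl1, Gsc and Evx1 in the streak, and secreted antagonists such as Lefty2 and Cer1 limit those signals. Mesp1 marks the nascent cardiac mesoderm, Foxa2 and Lhx1 the anterior streak, node and endoderm, and Fgf8 is the growth factor that lets streak cells migrate away. mESCs kept in a naive state hold most of these genes low. A GSK3 inhibitor stabilizes beta-catenin, the effector of canonical Wnt signalling, which T and several other streak genes read.

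Most of the set was at very low counts in both groups. Eomes alone supplied 71.2% to 78.3% of the counts of the 10 genes in each library. Only Eomes, T, Gsc, Evx1 and Mixl1 passed the filter on low counts that preceded the test, and none of these 5 passed the test of Haspin-KO against WT. T had the lowest p of them and was lower in both Haspin-KO libraries, at an adjusted p of 0.123 by edgeR.

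The library totals were 21834847 and 17452307 counts in WT and 14207828 and 14436750 counts in Haspin-KO, so that the WT libraries were deeper by 1.37-fold on average. A level was taken as shown by a library only above 3 counts, which covers counting error alone. Haspin itself had 875 and 619 counts in WT and 149 and 209 counts in Haspin-KO, a log2 fold change of -1.60 (SE 0.16, adjusted p = 0.00154 by edgeR's quasi-likelihood test). The deposited gene spans chr11:73135485-73138294 (mm10, minus strand) in 1 block of 2810 bases, and its remaining reads were not resolved by position. Pou5f1, the core pluripotency factor, reached 420 to 477 FPKM (counted reads scaled to exonic length and library total) in the 4 libraries. Its log2 fold change was -0.14, and that of Dppa5a, the most abundant of 12 pluripotency markers, was -0.21 (adjusted p = 0.120 by edgeR). Of the 12 markers, 0 had an adjusted p under 0.05 by edgeR, beside 0.988% of all genes tested higher and 1.51% lower. The log2 fold change was below 0 for 9 markers and above 0 for 3. Klf4, singled out after its values were seen, had the lowest p of the 12, at a log2 fold change of -0.29 (adjusted p = 0.0604 by edgeR).

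The qPCR primers of the study show which parts of these transcripts its own assays of the same genes read. They are printed 5′ to 3′, and capitals mark the bases that lie in the later exon of a pair joined by splicing. Its primer list holds a pair named T and a pair named Brachyury, and both matched transcripts of the single gene T (chr17, mm10).
T-F: gaacagctctccaaCCTATG
T-R: AGACTGGGATACTGGctagag
Brachyury-F: tctctggtctgtgagcaatggt
Brachyury-R: tgcgtcagtggtgtgtaatgtg
The forward primer of the T pair crosses the junction of exons 6 and 7 and the reverse primer the junction of exons 7 and 8, in the coding part of a transcript with 8 exons, for a product of 159 bases. The Brachyury pair lies wholly in the coding part of exon 8 and gives 117 bases. Assays under these names therefore both read the 1 gene whose counts are described here. The primer pairs of Mixl1, Gsc and Foxa2 lie in coding sequence too, in exon 2 of 2, exon 2 of 3 and exon 3 of 3, and give products of 109, 149 and 90 bases.

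Promoter windows were searched for CTTTGA on either strand, the core letters read by the TCF/LEF factors that carry Wnt signals to their targets, since T is a known target of that pathway. RefSeq windows (GRCm38.p6) run from 250 bases before to 50 bases after a gene start, and 8 of the 10 genes were matched, with 10 windows because Foxa2 has 3. The letters occurred in 3 of these windows, those of T, Mesp1 and the third of Foxa2, and in 16.0% of all 32851 windows in the table. The matches of T and Mesp1 are shown with 12 bases on either side, read along the gene, with the match in capitals.
T, chr17:8434177-8434206, plus strand: ctgctcggtactTCAAAGggtgtcccgccc
Mesp1, chr7:79793645-79793674, minus strand: ccctgctatggtTCAAAGggttcaggccct
Mesp1, chr7:79793604-79793633, minus strand: ggctcgagccggCTTTGAtatgctgatgaa
The match of T begins 234 bases before the gene start and those of Mesp1 begin 72 and 31 bases before the RefSeq start. The deposited interval of Mesp1 begins further upstream than that start, so both of its matches lie inside the deposited gene. A match of letters describes the sequence and shows no binding. Mixl1 and Fgf8 were not matched to a window.

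By level per length, the 10 genes fell into an order with Eomes on top. Its lowest library, at 6.30 FPKM, stood above the highest library of T, at 3.74 FPKM. Below Eomes, the neighbours T, Gsc, Evx1, Mixl1, Fgf8, Mesp1 and Foxa2 followed in that order of mean FPKM, and each overlapped the next in range. Cer1 and Lhx1 closed the order at mean levels of 0.00996 and 0.00851 FPKM. The mean FPKM of Eomes lay at the 89.9th percentile of all genes in the table and that of Mixl1 at the 73.8th, in a table where 26731 genes had no count in any library. The number of the 10 genes above 3 counts was 6 in each WT library, 8 in the first and 6 in the second Haspin-KO library.

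**Figure D1:**
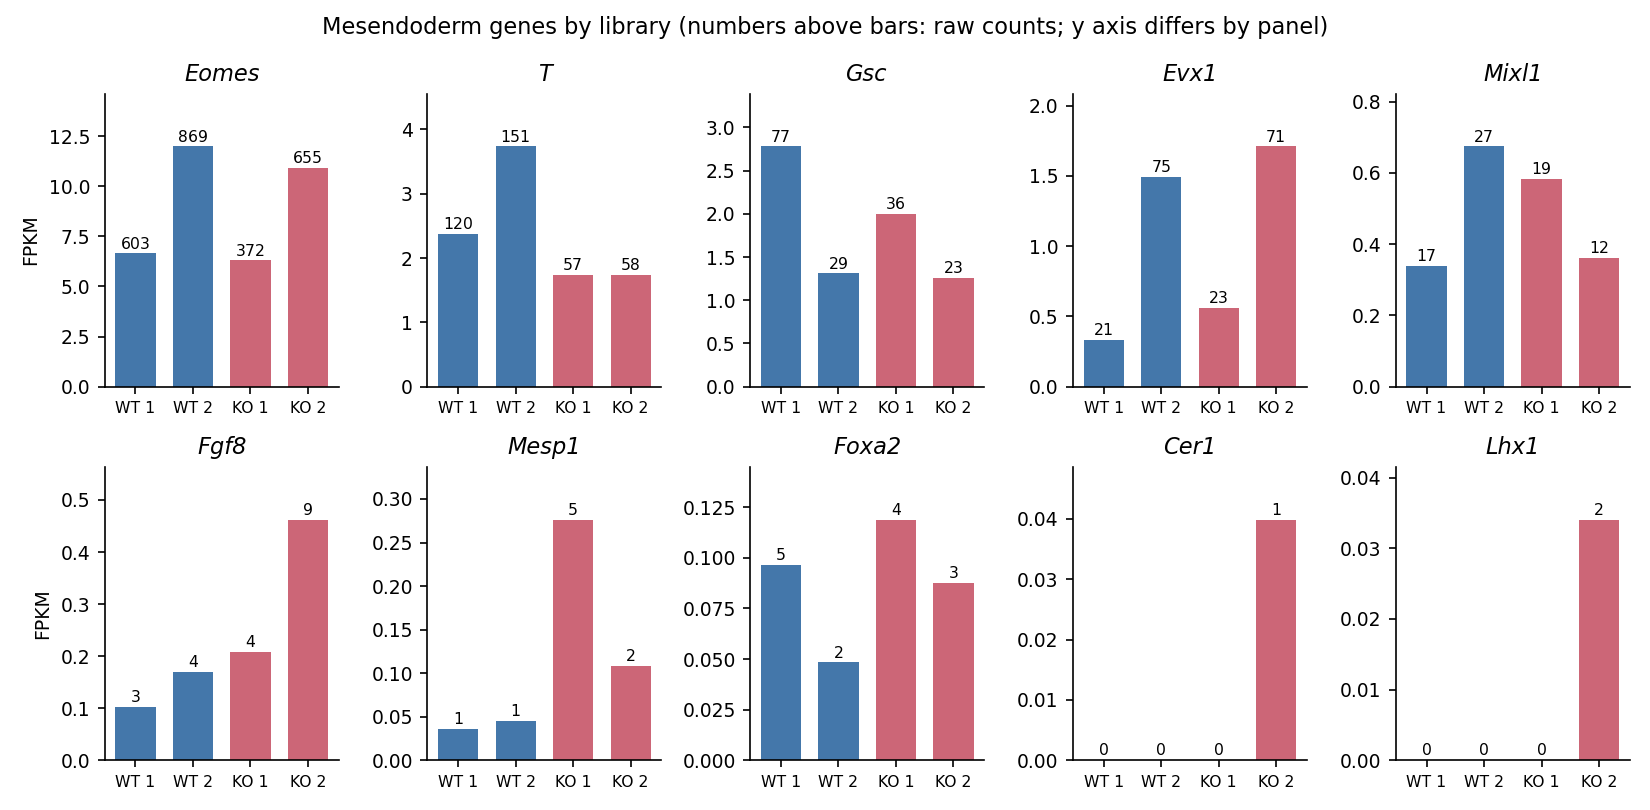
Levels of the 10 mesendoderm genes in each library, as deposited FPKM on a linear axis that starts at 0 and differs between panels, with the raw count above each bar; blue bars are WT, red bars Haspin-KO. Eomes reaches 11.98 FPKM at most, whereas Cer1 and Lhx1 have counts in 1 library only, 1 and 2 counts.

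Eomes, the T-box factor that opens the endoderm and mesoderm programme downstream of Nodal, had by far the most counts of the 10. The gene (ENSMUSG00000032446, chr9:118478212-118486132, plus strand) had 603 and 869 counts in WT and 372 and 655 in Haspin-KO. Its FPKM were 6.65 and 11.98 in WT and 6.30 and 10.92 in Haspin-KO, with means of 9.32 ± 3.77 and 8.61 ± 3.27 (SD, n = 2 each). The second library was the higher one in both groups, and the groups overlapped. The log2 fold change was -0.11 (SE 0.29, 95% interval -0.75 to 0.54, adjusted p = 0.869 by edgeR). At this spread a change of up to 1.45-fold upward or to 0.593 of the WT level lay inside the interval. The direction rested on single libraries, since the log2 fold change was 0.38 without the second WT library and 0.25 without the first Haspin-KO library, but -0.49 without the first WT library and -0.58 without the second Haspin-KO library. An antisense neighbour, Gm33460, shares 118 of the 4155 exonic bases of Eomes and had 7, 5, 3 and 1 counts in WT 1, WT 2, Haspin-KO 1 and Haspin-KO 2. Whether the counting used strand is not given in the sources used here, so reads in the shared bases cannot be assigned, though the neighbour's counts were few.

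T, or Brachyury, the T-box factor of the streak and the notochord, was lower in both Haspin-KO libraries than in either WT library. The gene (ENSMUSG00000062327, chr17:8434423-8442496, plus strand) had 120 and 151 counts in WT and 57 and 58 in Haspin-KO. The FPKM were 2.37 and 3.74 in WT and 1.73 and 1.74 in Haspin-KO, so that the Haspin-KO libraries lay together and the WT libraries further apart. Groups without overlap were common in this table, since 26.9% of all genes tested were lower in both Haspin-KO libraries and 25.3% were higher in both. The log2 fold change of T was -0.81 (SE 0.26, 95% interval -1.39 to -0.23), a level 1.75-fold lower. Its unadjusted p was 0.0115 and its adjusted p 0.123 by edgeR's quasi-likelihood test, so T did not pass. Over 13 alternative settings the adjusted p of T ran from 0.0010 to 0.456 and the log2 fold change stayed below 0. Without a filter on low counts the adjusted p was 0.0193, at a log2 fold change of -0.84, under the 2-fold limit. The difference was smaller without the second WT library, where the log2 fold change was -0.45 (adjusted p = 0.456). In bulk libraries such as these, fewer cells that express a gene and less RNA per cell cannot be told apart.

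Gsc, the homeobox factor of the organizer and anterior streak, was spread more widely within a group than between groups. The gene (ENSMUSG00000021095, chr12:104471209-104473330, minus strand) had 77 and 29 counts in WT and 36 and 23 in Haspin-KO, or 2.78 and 1.31 FPKM against 1.998 and 1.26 FPKM. The first WT library was high, and the groups overlapped. The log2 fold change was -0.36 (SE 0.40, 95% interval -1.25 to 0.54, adjusted p = 0.651 by edgeR). It turned to 0.29 without the first WT library, was -0.77 without the second WT library and was -0.71 without the first and -0.08 without the second Haspin-KO library.

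Evx1, the homeobox factor of the posterior streak, differed mainly by library number. The gene (ENSMUSG00000005503, chr6:52313498-52318378, plus strand) had 21 and 75 counts in WT and 23 and 71 in Haspin-KO. Its FPKM were 0.33 and 1.49 in WT and 0.56 and 1.71 in Haspin-KO, so the second library was high in each group and the groups overlapped. The log2 fold change was 0.36 (SE 0.64, 95% interval -1.08 to 1.80, adjusted p = 0.796 by edgeR), and it ran from -0.67 without the second Haspin-KO library and -0.40 without the first WT library to 0.97 without the first Haspin-KO library and 1.77 without the second WT library. The antisense gene Evx1os shares 73 of the 2877 exonic bases of Evx1 and had 8, 9, 2 and 20 counts in WT 1, WT 2, Haspin-KO 1 and Haspin-KO 2. Without a known strand setting, the reads in these shared bases cannot be told apart.

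Mixl1, a homeobox factor that acts in endoderm formation, had 17 and 27 counts in WT and 19 and 12 in Haspin-KO. The gene (ENSMUSG00000026497, chr1:180693043-180697034, minus strand) stood at 0.34 and 0.67 FPKM in WT and 0.58 and 0.36 FPKM in Haspin-KO, and the Haspin-KO libraries lay between the WT libraries. The log2 fold change was -0.08 (SE 0.46, 95% interval -1.12 to 0.96, adjusted p = 0.946 by edgeR). It was 0.47 without the second WT library, 0.21 without the second Haspin-KO library, -0.53 without the first WT library and -0.44 without the first Haspin-KO library. At these counts a 1.94-fold rise and a fall to 0.461 of the WT level both lay inside the interval. Changes within that range cannot be told apart from no change.

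The other 5 genes were below the filter and got no test. Fgf8, the growth factor of the streak, had 3 and 4 counts in WT and 4 and 9 in Haspin-KO, a ratio of summed counts per library total of 2.54 with an exact 95% interval of 0.942 to 7.52. Mesp1, the bHLH factor of nascent mesoderm, had 1 count in each WT library and 5 and 2 in Haspin-KO, a ratio of 4.79 with an interval of 0.912 to 47.2. Foxa2, the forkhead factor of node and endoderm, had 5 and 2 counts in WT and 4 and 3 in Haspin-KO, a ratio of 1.37 with an interval of 0.409 to 4.57. All 3 intervals are Clopper-Pearson intervals that cover counting error only, and all 3 contain 1. Lhx1, a LIM homeobox factor of the node, had no count in 3 libraries and 2 counts in the second Haspin-KO library, and Cer1, a secreted antagonist of Nodal and BMP made in the anterior endoderm, had 1 count in that same library alone. Neither rose above 3 counts anywhere, so no fold is given.

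Over the tested genes, edgeR called 0 of 5 higher and 0 of 5 lower at an adjusted p under 0.05 with a fold over 2, where 0.327% of all 15580 genes tested were called higher and 0.501% lower. Without the fold limit the counts stayed at 0 and 0, beside 0.988% higher and 1.51% lower. At an unadjusted p under 0.05 the set had 0 higher and 1 lower, T, where 10.4% of all genes tested were higher and 10.4% lower. DESeq2 gave an adjusted p for 3 of the 10 genes, and 0 were under 0.05, where 198 genes were higher and 274 lower of the 28670 with a p. limma passed 0 of 14817 genes, so its 0 for the set was fixed. Each tool gave 1 of the set, T, an unadjusted p under 0.05, beside 921 genes higher and 1049 lower by DESeq2 and 1245 higher and 1491 lower by limma. The 5 genes that passed the filter are not the whole set.

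**Figure D2:**
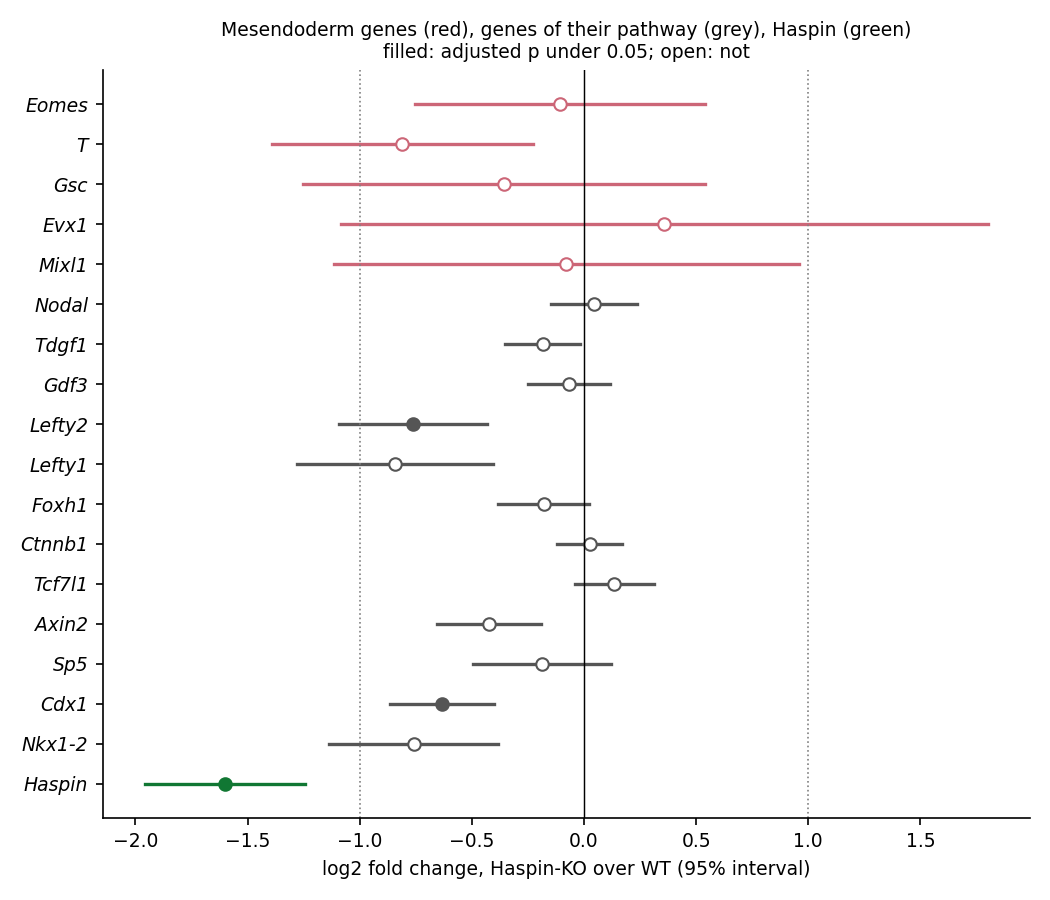
Log2 fold change of Haspin-KO over WT, with its 95% interval, for the 5 mesendoderm genes tested (red), 12 genes of their signalling pathway (grey) and Haspin (green); filled points have an adjusted p under 0.05 by edgeR, and dotted lines mark a 2-fold change. The intervals of Eomes, Gsc, Evx1 and Mixl1 cross 0 and are wider than those of Nodal or Ctnnb1, while T lies at -0.81 and Lefty2 and Cdx1 at -0.76 and -0.63.

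Eomes and Evx1 differed more between the libraries of a group than between the groups, and in the same sense in both. In CPM, counts scaled to library size after TMM normalization, the second library was 1.82-fold above the first in WT and 1.77-fold in Haspin-KO for Eomes, and 4.50-fold and 3.11-fold for Evx1. For Gsc the second library was the lower one in both groups, at 0.475 and 0.643 of the first. Mixl1 went opposite ways, at 2.001 in WT and 0.635 in Haspin-KO, and T stood at 1.59 and 1.02. A ratio over 2-fold in favour of the second library in both groups, as Evx1 showed, was found for 31 of the 15580 genes tested, or 0.199%. A ratio over 0.5 on the log2 scale, which takes in Eomes as well, was found for 213 genes, or 1.37%, and the reverse, which takes in Gsc, for 368 genes, or 2.36%. Bmp4, which encodes the BMP signal that acts upstream of the streak and was singled out after its values were seen, moved in the same way, with 393 and 733 counts in WT and 231 and 569 in Haspin-KO, or 2.35-fold and 2.48-fold in CPM. The labels give no batch, and what sets the second libraries apart was not tested.

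**Figure D3:**
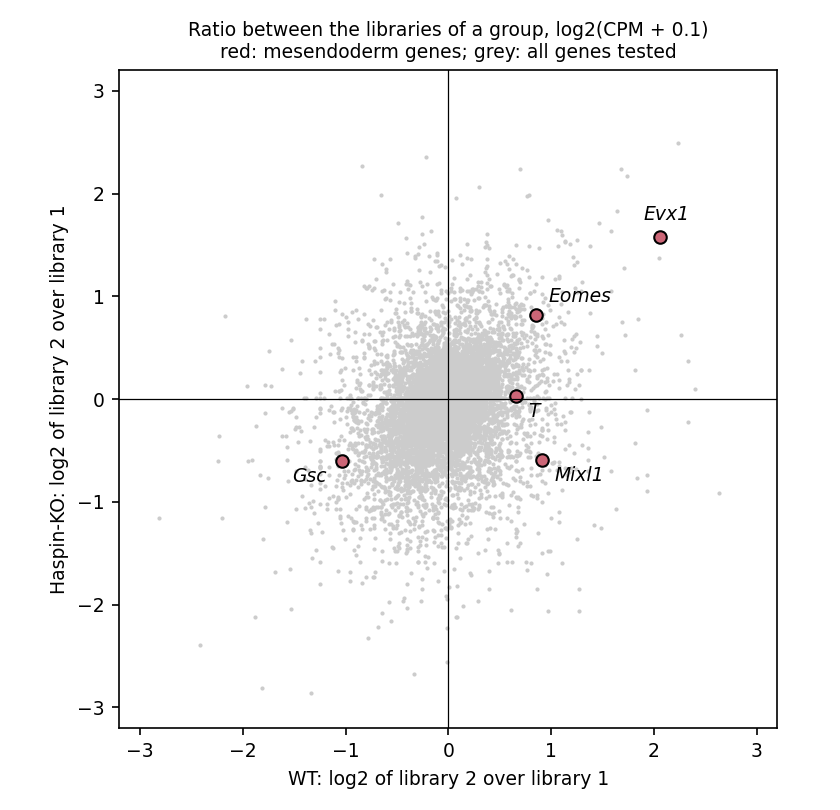
Log2 ratio of the second to the first library in WT (horizontal axis) and in Haspin-KO (vertical axis), from log2(CPM + 0.1), for the 5 mesendoderm genes tested (red) and all genes tested (grey; 1 of them lies outside the axes). Evx1 and Eomes sit at the upper right, high in the second library of both groups, Gsc at the lower left, and T and Mixl1 away from the diagonal.

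Beyond the 10 genes, 81 further genes of the streak pathway, its receptors, its Wnt targets and its descendants were read as 5 lists, and 62 of them were tested. In these, 0 genes had an adjusted p under 0.05 upward and 2 downward, Lefty2 and Cdx1, and none had a fold over 2. Over all genes tested, 0.988% were higher and 1.51% lower at that adjusted p, and 0.327% and 0.501% with a fold over 2. The same shares stand beside the counts of each list below. At an unadjusted p under 0.05 by edgeR, 3 were higher and 10 lower, beside the 10.4% in each direction over all genes. The 3 higher include Fgf5, which passed the filter only through its Haspin-KO counts and whose test is not read here. The median log2 fold change over the 62 genes was -0.03, and over all genes tested it was -0.0039.

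Among 18 secreted signals and antagonists of the streak, 14 were tested. Their median log2 fold change was -0.01, or -0.24 without the second Haspin-KO library. At an adjusted p under 0.05 by edgeR 1 was lower, beside 1.51% of all genes tested. Lefty2, a Nodal target that feeds back to block Nodal, had 1126 and 1239 counts in WT and 492 and 544 in Haspin-KO, or 19.8 and 27.2 FPKM against 13.3 and 14.4 FPKM. The groups did not overlap, where 26.9% of all genes tested were likewise lower in both Haspin-KO libraries. The log2 fold change of Lefty2 was -0.76 (SE 0.15, adjusted p = 0.0317 by edgeR), a level 1.70-fold lower. Without the second WT library it was -0.51 with an adjusted p of 0.119. Its neighbour and close relative Lefty1, singled out after its values were seen, had 197 and 132 counts in WT and 68 and 65 in Haspin-KO (log2 fold change -0.84, adjusted p = 0.0559 by edgeR), and reads may be shared between so similar a pair.

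Nodal, Tdgf1, Gdf3 and Apela did not pass. Nodal had 39.6 and 40.6 FPKM in WT and 44.1 and 38.9 FPKM in Haspin-KO, a log2 fold change of 0.04 (95% interval -0.15 to 0.24). Its co-receptor Tdgf1 had a log2 fold change of -0.18 (adjusted p = 0.203 by edgeR), its relative Gdf3 one of -0.07 and the peptide hormone Apela one of -0.28 (adjusted p = 0.200 by edgeR). These genes were far more abundant than the mesendoderm genes themselves, with Tdgf1 at 156 to 185 FPKM and Nodal at 38.9 to 44.1 FPKM. Wnt3, the Wnt ligand that starts the streak in the embryo and singled out after its values were seen, had 11, 8, 13 and 4 counts in WT 1, WT 2, Haspin-KO 1 and Haspin-KO 2, and was not tested. Fgf5, a marker of the primed epiblast, singled out after its values were seen, had 2 and 1 counts in WT and 9 and 10 in Haspin-KO. Its Haspin-KO mean of 0.66 CPM was 4.28-fold above a floor of 3 counts per WT library. That ratio leaves out counting error in Haspin-KO and is no lower bound. For counting error only, the exact 95% interval of the Fgf5 count ratio was 2.55 to 45.7. Fgf5 passed the filter only through its counts in Haspin-KO, so its test is not read here.

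All 20 receptors and intracellular effectors were tested, with a median log2 fold change of 0.02, which ran from 0.01 to 0.07 when each library was left out, and 0 had an adjusted p under 0.05, while 2 were higher and 2 lower at an unadjusted p under 0.05 by edgeR, near the 10.4% of all genes tested in each direction. Named after their values were seen, these were the BMP receptor gene Bmpr2 at a log2 fold change of 0.34, the Wnt receptor gene Fzd7 at 0.29, the activin receptor gene Acvr1b at -0.30 and the Wnt co-receptor gene Lrp5 at -0.32. Ctnnb1, which encodes beta-catenin, had a log2 fold change of 0.02 (95% interval -0.12 to 0.17). Tcf7l1, the TCF factor that represses Wnt targets in mESCs, had 0.14, and Foxh1, the partner of SMADs at Nodal targets, had -0.18.

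Of 12 Wnt targets that share the streak, 10 were tested, with a median log2 fold change of -0.23. At an adjusted p under 0.05 by edgeR 1 was lower, beside 1.51% of all genes tested. The median was -0.10 without the second WT library and -0.08 without the second Haspin-KO library. Cdx1, a homeobox gene that Wnt signalling turns on in the posterior streak, had 1788 and 1270 counts in WT and 774 and 660 in Haspin-KO, or 46.8 and 41.6 FPKM against 31.1 and 26.1 FPKM. The groups did not overlap, as for the 26.9% of all genes tested that were lower in both Haspin-KO libraries. The log2 fold change of Cdx1 was -0.63 (SE 0.10, adjusted p = 0.0172 by edgeR), and -0.55 without the first WT library. Axin2, the feedback inhibitor used as a general readout of canonical Wnt signalling and singled out after its values were seen, had 12.6 and 15.1 FPKM in WT and 10.5 and 10.2 FPKM in Haspin-KO (log2 fold change -0.42, adjusted p = 0.0650 by edgeR). Its adjusted p was 0.0363 by DESeq2, 0.00335 without a filter, 0.0285 and 0.0442 without the first and the second Haspin-KO library, and 0.246 without the second WT library, where the log2 fold change was -0.28. Sp5, a further direct target, overlapped between groups at -0.19, and Ccnd1, the cyclin, stood at 0.03. The list therefore held 1 gene that passed. Of the 10 tested, 7 had a log2 fold change below 0, beside 7890 of all 15580 genes tested.

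Of 17 other streak and mesoderm genes, 8 were tested, with a median of -0.03 and none under an adjusted p of 0.05, and 1 was lower at an unadjusted p under 0.05 by edgeR. That one was Nkx1-2, a homeobox gene of the caudal streak, with 7.73 and 10.1 FPKM in WT and 4.66 and 5.86 FPKM in Haspin-KO (log2 fold change -0.76, SE 0.17, adjusted p = 0.0504 by edgeR). It passed with DESeq2 (adjusted p = 0.00899), after thinning (0.0443), without a filter (0.000140) and without either Haspin-KO library or the first WT library, while without the second WT library its log2 fold change was -0.55 (adjusted p = 0.193). Tbx3, a T-box factor that naive mESCs also use, had -0.01, and Snai1, which drives the epithelial-to-mesenchymal change in the streak, had -0.04. For 5 of the 17 genes, named after their values were seen, neither Haspin-KO library rose above 3 counts. They were low in WT too, with 6 and 0 counts for Msgn1, 4 and 0 for Ripply2 and 1 and 1 for Hoxb1. Evx2 and Aplnr had no count in WT. The median of this list was -0.41 without the first Haspin-KO library, 0.03 without the second WT library and 0.11 without the second Haspin-KO library.

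Of 16 genes of the definitive endoderm and node, 12 were tested, with a median of -0.12, which turned to 0.06 without the first WT library and was -0.21 without the second WT and -0.24 without the first Haspin-KO library, and none under an adjusted p of 0.05, and 1 was lower at an unadjusted p under 0.05 by edgeR. That gene was Otx2, an anterior homeobox factor named after its values were seen, with 112 and 121 counts in WT and 54 and 56 in Haspin-KO (log2 fold change -0.65, adjusted p = 0.163 by edgeR). Trh, the gene of thyrotropin-releasing hormone, had a log2 fold change of -0.20 and Fzd5, a Wnt receptor, one of -0.04. In all 5 lists DESeq2 too called 0 genes with a fold over 2, and without the fold limit it gave 4 lower, Lefty2, Cdx1, Axin2 and Nkx1-2, of the 274 genes lower in its whole table, where 9 pathway genes were lower and 3 higher at an unadjusted p under 0.05. limma passed no gene in its whole table and so gave no count for the lists.

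**Figure D4:**
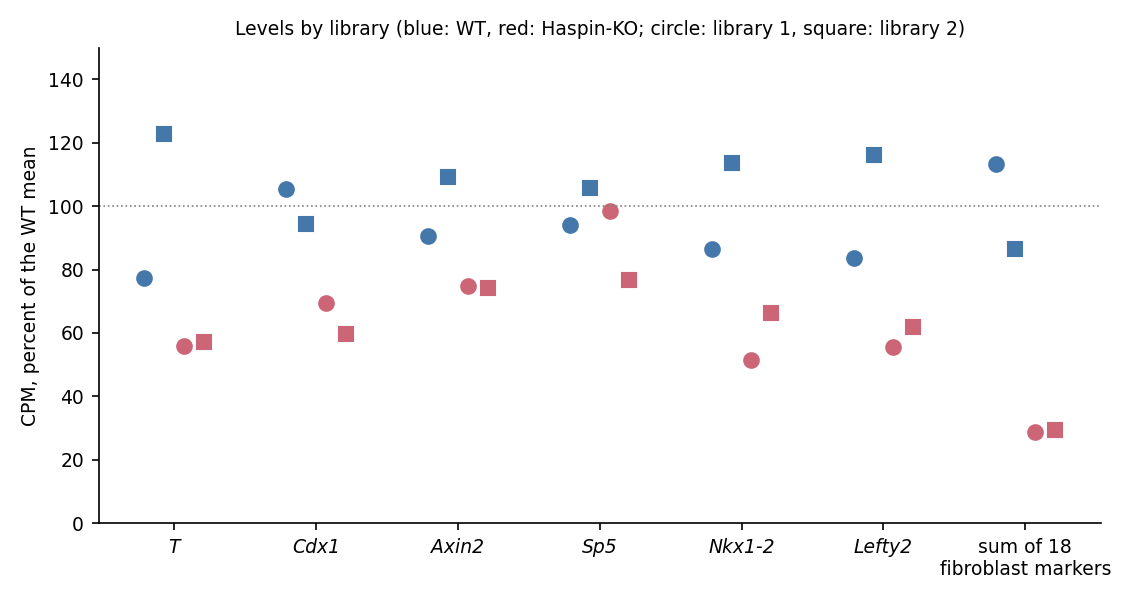
CPM of T, the 5 pathway genes Cdx1, Axin2, Sp5, Nkx1-2 and Lefty2, and the summed CPM of 18 fibroblast markers, each as percent of its WT mean (vertical axis, linear from 0), in the 4 libraries; blue is WT, red Haspin-KO, circles are the first and squares the second library. T stands at 77.3% and 123% in WT and 55.9% and 57.2% in Haspin-KO, Sp5 overlaps between groups, and the fibroblast markers stand at 28.9% and 29.5%. The 5 pathway genes were picked by no fixed rule from the 62 tested, whose median log2 fold change was -0.03.

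Part of the markers of embryonic fibroblasts, the cells used as feeders, were lower in Haspin-KO. Of 18 such markers 14 were tested and 8 were called lower by edgeR, where 0.501% of all genes tested were called lower. Of these, Col1a2, Col3a1, Postn, Prrx1 and Lox passed the filter only through their WT counts, and with at least 10 counts in every library the other 3, Col1a1, Acta2 and Tagln, were called. limma passed no gene in its whole table. The tested markers Mmp2, Fbn1, Twist1, Col5a1 and Thy1, named after their values were seen, had log2 fold changes of -0.01, -0.10, -0.18, -0.28 and -0.51 and did not pass. Pdgfrb, named after its values were seen too, had -0.85 at an adjusted p of 0.0392 by edgeR, under the 2-fold limit. The 18 markers had a summed level of 304 and 232 CPM in WT and 77.3 and 79.0 CPM in Haspin-KO. Acta2, a smooth-muscle actin gene, fell from 25.3 and 18.7 FPKM to 1.41 and 2.68 FPKM. Lox, the collagen cross-linking enzyme, fell from 1215 and 657 counts to 0 in both Haspin-KO libraries. At or below 3 counts in both Haspin-KO libraries were 8 of the 18 markers, Col3a1, Lum, Dcn, Postn, Prrx1, Twist2, Lox and S100a4, and Lum had no count in any library. The WT library with the higher fibroblast sum, the first, had the lower T, Lefty2, Axin2 and Nkx1-2, and the higher Cdx1, Lefty1 and Gsc. With 1 library on each side, this order cannot show whether a relation exists. The part of fibroblasts in the levels of these genes was not tested.

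No marker of the primitive endoderm or of neural cells passed the test, while markers of the 2-cell-like state did. Of 8 primitive endoderm markers 6 were tested and 0 had an adjusted p under 0.05 by edgeR, with summed levels of 152 and 158 CPM in WT and 143 and 129 CPM in Haspin-KO. Dab2 and Lama1, which are expressed there, had log2 fold changes of -0.04 and -0.25. Of the 6 tested, 3 lay below 0 and 3 above, with a median of 0.11. Cubn, singled out after its values were seen, had the highest, 1.36 (adjusted p = 0.143 by edgeR), from 15 and 10 counts in WT and 32 and 15 in Haspin-KO. Of 8 neural markers 4 were tested and 0 had an adjusted p under 0.05 by edgeR, with Nes at 0.27 and Sox1 at -0.18. Beside both lists, 0.988% of all genes tested were higher and 1.51% lower at that adjusted p. Of 6 genes of the 2-cell-like state, a rare state that resembles the early embryo, 4 were called higher in Haspin-KO. Of all genes tested, 0.327% were called higher. The log2 fold changes were 1.39 for Zscan4d, 1.23 for Zscan4c, 1.09 for Zscan4f and 1.14 for Gm8300. These are members of multicopy families whose reads may be shared. The other genes of the list, named after their values were seen, were not called. Usp17la had a log2 fold change of 1.31 (adjusted p = 0.0786 by edgeR) and Tcstv3 one of 0.02 (adjusted p = 0.970 by edgeR). The summed level of the 6 genes was 53.9 and 45.7 CPM in WT and 134 and 103 CPM in Haspin-KO. Its part in the mesendoderm levels was not tested.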

How the data were processed

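RNA-seq of WT and Haspin-KO E14 mESCs (2 libraries each) was analysed from the gene table the authors deposited. It holds raw counts per gene and library without normalization and FPKM, which equal the deposited counts per exonic length and library total in 100% of values within 0.0051. The submitters' processing notes name cutadapt 1.9.1, HISAT2 2.0.1, HTSeq 0.6.1, DESeq2 and mm10. The strand setting and annotation release are not given in the sources used here. The coordinates of the 10 genes equal GENCODE M21.

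Counts were tested in R 4.3.3 with edgeR 4.0.16 (filterByExpr, TMM, quasi-likelihood test, no block), with p-values adjusted by Benjamini-Hochberg over all 15580 genes tested. A gene was called at an adjusted p under 0.05 and a fold over 2. CPM used TMM-scaled library totals. Alternatives were DESeq2 1.42.0, limma 3.58.1 on log2(FPKM + 0.1) or log2(FPKM + 1), keeping genes that reached 0.5 FPKM in 2 libraries or more, DESeq2's size factors, library totals, no filter, at least 10 counts in every library, thinning to the smallest library, the replicate number as a block, no fold limit, and leaving out each library. Intervals of count ratios are exact and cover counting error only.

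Named were the 10 genes, Haspin, antisense or overlapping neighbours, pathway genes that passed, the 3 tested genes with the highest mean FPKM of each pathway list and the 2 highest of each marker list. Genes said to be singled out, the other called markers and markers at or below 3 counts were named after their values were seen. The members and lists were chosen with earlier results of these data known.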

Additional observations from a re-analysis of the deposited data

How the results depend on the processing

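The 10 mesendoderm genes held 0 calls in either direction under each alternative run, where 5 of them were tested, 6 without the first Haspin-KO library, and 10 without a filter or by DESeq2, which left 7 without an adjusted p. The number of genes called over the whole table depended on the setting. Calls higher in Haspin-KO, 51 as reported, numbered 125 without a filter, 0 by limma at either pseudocount, 154 without the fold limit and 17 to 157 when each library was left out. Calls lower, 78 as reported, numbered 140 without a filter, 36 with at least 10 counts in every library, 42 by DESeq2, 0 by limma at either pseudocount, 236 without the fold limit and 37 to 150 when each library was left out. At an unadjusted p under 0.05 limma gave 1245 genes higher and 1491 lower with a pseudocount of 0.1, and its smallest adjusted p was 0.0697. Haspin had a log2 fold change of -1.59 and -1.42 by limma, with adjusted p of 0.115 and 0.102. Of the pathway genes, 2 were lower as reported, 6 without a filter, 4 by DESeq2, 0 by limma and 1 to 8 when each library was left out, and 0 were higher as reported against 1 without a filter, Fgf5, with a fold over 2.

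Same-numbered libraries of the groups share only a number in the labels. Their replicate differences correlated at r = 0.289 across the 15580 genes tested, which are not independent, and with 2 pairs this does not show a pairing. In a fit with a replicate block, 240 genes were called higher and 167 lower. Of the pathway genes, 3 were higher (Fgf5, Fzd7 and Bmpr2) and 11 lower. Fgf5 alone of the 3 was over 2-fold, 1 call. Its test is not read, since it passed the filter only through its Haspin-KO counts. With the block T had an adjusted p of 0.0010 by edgeR at a log2 fold change of -0.80. That fit leaves 1 residual degree of freedom.

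Directions of small log2 fold changes were not stable. Ctnnb1 stood at -0.0032 without a filter and Snai1 at 0.17 after thinning. Leaving out each library gave -0.58 to 0.38 for Eomes, -0.67 to 1.77 for Evx1, -0.77 to 0.29 for Gsc, -0.53 to 0.47 for Mixl1, -1.12 to -0.45 for T, -0.90 to 0.64 for Bmp4, -0.026 to 0.088 for Ccnd1, -0.28 to 0.17 for Dab2, -0.27 to 0.24 for Fzd5, -0.16 to 0.019 for Gdf3, -0.031 to 0.11 for Nodal, -0.78 to 0.44 for Snai1, -0.089 to 0.069 for Tbx3 and -0.50 to 0.046 for Trh. Where a group kept 1 library, it was assumed to vary like the other group. In the reported fit 5 of the 10 genes had too few counts for a test. The cause of the other shifts was not tested.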
